A study of Mus musculus with 4 samples.

Results

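The 39 genes of the 4 Hox clusters were followed across wild-type and Dyrk2−/− mouse embryos at embryonic day (E) 8.5 and E10.5. Members were all genes whose name in the array annotation is Hox, a cluster letter from a to d and a paralog number, which gave 39 of 37074 gene names and 52 of 56605 probes. There were 11 genes in Hoxa, 10 in Hoxb, 9 in Hoxc and 9 in Hoxd. By paralog group, 8 were anterior (groups 1 to 3), 15 central (groups 4 to 8) and 16 posterior (groups 9 to 13). In the mm9 coordinates of the array annotation the brightest probes of the genes lay at chr11:96057854-96228510 for Hoxb, chr15:102759058-102867272 for Hoxc and chr2:74509248-74603059 for Hoxd, and those of Hoxa on chr6. Along each of the 4 clusters, the order of these brightest probes followed the paralog number.

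Hox genes encode homeodomain transcription factors that give cells along the body axis their regional identity. Within a cluster the genes at the 3′ end, with low paralog numbers, are switched on early and in anterior territories, and those at the 5′ end later and more posteriorly, a property called colinearity. Their onset depends on retinoic acid, Wnt and Fgf signals, on Cdx factors and on the opposing Polycomb and Trithorax chromatin complexes, and the posterior HoxA and HoxD genes are switched on again in the limb buds and the genital tubercle.

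The study asked which genes differ at early organogenesis in embryos that lack the kinase Dyrk2. The groups were wild-type E8.5, Dyrk2−/− E8.5, wild-type E10.5 and Dyrk2−/− E10.5, all C57BL/6 whole embryos, and the knockout carried small deletions made with the CRISPR/Cas9 nickase. Each group had a single 1-colour array of total RNA, the 4 arrays lay on 1 slide, and the sources used here do not say how many embryos stood behind each RNA or which of the deletion lines was used. Levels are log2 signals relative to the 75th percentile of the same array, so 0 is the level of that percentile, and a gene is given by its brightest probe. With 1 array per group the differences have no replicate check, so a gene was counted as different at 1.5-fold or more, the fold used by the study. A level is called detected where most spots of the probe were well above background in the scanner software. The median SD between repeated spots of 1 probe, the only technical spread at hand, was 0.09 for wild-type E8.5, 0.12 for Dyrk2−/− E8.5, 0.07 for wild-type E10.5 and 0.08 for Dyrk2−/− E10.5, on the log2 scale.

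The targeted gene was checked before the Hox genes. The brightest Dyrk2 probe read 0.06 in wild-type and 0.76 in Dyrk2−/− at E8.5, and −0.31 in wild-type and 0.34 in Dyrk2−/− at E10.5. It was therefore higher on the arrays labelled Dyrk2−/−, by 1.62-fold and 1.57-fold, and the other probe differed by 1.02-fold and 1.21-fold in the same direction. A small deletion need not remove the RNA, and where the probes lie relative to the deletions was not tested. The Dyrk2 probes therefore do not check the genotype labels, and every direction below is that of the array labelled Dyrk2−/− against the array labelled wild-type.

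At E8.5 the 5′ ends of the clusters were mostly silent on the array, and at E10.5 nearly all of the Hox genes were detected. The number detected was 30 of 39 in wild-type E8.5, 32 in Dyrk2−/− E8.5, 38 in wild-type E10.5 and 37 in Dyrk2−/− E10.5. All 8 anterior genes were detected on each array. Of the 15 central genes, 14 were detected in wild-type E8.5 and 15 on each of the other arrays. Of the 16 posterior genes, 8 were detected in wild-type E8.5 and 9 in Dyrk2−/− E8.5, against 15 and 14 at E10.5. By cluster, wild-type E8.5 against wild-type E10.5 gave 9 and 11 of 11 for Hoxa, 9 and 10 of 10 for Hoxb, 6 and 8 of 9 for Hoxc, and 6 and 9 of 9 for Hoxd. The 4 genes of paralog group 9 were detected on each array, and Hoxc12 was detected on none. In all, 30 Hox genes were detected on all 4 arrays, and a further 8 on 1 to 3 of them.

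Hoxb1 and Hoxd1, of the paralog group that is switched on before the other Hox genes, were lower at E10.5 than at E8.5 in both genotypes. Hoxb1, a marker of rhombomere 4, read 1.44 in wild-type and 1.38 in Dyrk2−/− at E8.5, then −1.43 and −1.35 at E10.5. Hoxd1 read 1.17 and 1.18 at E8.5, then −2.16 and −2.31 at E10.5. For each of these genes both E8.5 arrays were above both E10.5 arrays, and the genotypes differed by less than 1.5-fold within a stage. The E8.5 level was 7.31-fold the E10.5 level for Hoxb1 in wild-type and 6.63-fold in Dyrk2−/−, and for Hoxd1 it was 10.1-fold and 11.2-fold. In bulk RNA of whole embryos, fewer cells of a type and less RNA per cell cannot be told apart.

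The anterior genes of groups 2 and 3, Hoxa2, Hoxb2, Hoxa3, Hoxb3 and Hoxd3, differed between the stages by −0.61 to 0.48 on the log2 scale in wild-type and by −0.67 to 0.16 in Dyrk2−/−. With the main scaling Hoxb2 in wild-type and Hoxa3 in Dyrk2−/− were past 1.5-fold, both lower at E10.5, and a dimmer Hoxb2 probe fell by 1.16 in wild-type. Over the 8 anterior genes the median difference, E10.5 minus E8.5, was −0.48 in wild-type and −0.59 in Dyrk2−/−, but 0.05 in Dyrk2−/− with spike-in scaling, described below, where Hoxb2, Hoxb3 and Hoxd3 turned positive.

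The central genes did not move as a block. Paralog group 5 was higher at E10.5 in all 3 clusters that hold it: Hoxa5, which acts in lung and neck mesoderm, by 2.75-fold in wild-type and 1.61-fold in Dyrk2−/−, Hoxb5 by 2.91-fold and 1.8-fold, and Hoxc5 by 3.59-fold and 2.11-fold. Hoxc8, a thoracic gene, went the other way. It read 1.81 in wild-type and 2.40 in Dyrk2−/− at E8.5, then 0.66 and 0.46 at E10.5, so both E8.5 arrays were above both E10.5 arrays. The median over the 15 central genes was 0.33 in wild-type and −0.05 in Dyrk2−/−, the latter turning positive in 4 of the 5 alternative scalings and sources, to 0.59 with spike-in scaling, 0.25 with no scaling, 0.044 with quantile normalization and 0.043 with the deposited table.

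The largest rises with stage were in posterior genes from paralog group 10 upward. Hoxa10, which patterns lumbar vertebrae and the reproductive tract, read −0.54 in wild-type and −0.05 in Dyrk2−/− at E8.5, then 2.40 and 2.07 at E10.5. Hoxa11, a gene of the sacral skeleton, forelimb and kidney, read −2.09 and −1.98 at E8.5, then 1.60 and 1.44 at E10.5. Hoxd13, which patterns digits and the genital tubercle, read −3.98 and −3.40 at E8.5, then −0.65 and −1.34 at E10.5. These 3 genes were detected on all 4 arrays, and both E10.5 arrays were above both E8.5 arrays. The stage difference in log2 level was 2.94 for Hoxa10, 3.69 for Hoxa11 and 3.33 for Hoxd13 in wild-type, and 2.12, 3.42 and 2.06 in Dyrk2−/−. By their brightest probes the genes of group 9, Hoxa9, Hoxb9, Hoxc9 and Hoxd9, ranged from −0.52 to 0.58 in wild-type and from −1.68 to −0.08 in Dyrk2−/−, but a dimmer Hoxa9 probe, detected on all 4 arrays, differed with stage by 1.84 in wild-type and −0.076 in Dyrk2−/−. Hoxc9 turned positive in Dyrk2−/− in 4 of the 5 alternative scalings and sources, and Hoxa9 and Hoxd9 in 1.

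Of the 8 posterior genes not detected in wild-type E8.5, Hoxc12 had no detected level anywhere and the other 7 were detected in wild-type E10.5. For these each fold is given as an at-least value. It was taken against the higher of the measured level and the lowest level of any detected probe on the dim array. Here and below such values hold for the main processing only and are not strict bounds. With normexp background correction, the limma fit given below had rises of 2.24 for Hoxd12, 0.61 for Hoxd11, 1.80 for Hoxd10 and 1.39 for Hoxc11, on the log2 scale. As folds these are smaller than the at-least values of the same genes. Hoxd12, a limb and genital gene, read −7.08 in wild-type and −6.80 in Dyrk2−/− at E8.5, neither of them well above background, and −0.22 and −1.34 at E10.5. Its E10.5 level was at least 24.2-fold higher in wild-type and at least 9.08-fold higher in Dyrk2−/−. Hoxd11 read −6.95 and −6.07 at E8.5, not well above background, then −2.75 and −3.37 at E10.5, at least 4.18-fold and at least 2.22-fold higher. Hoxd10 read −4.83 at wild-type E8.5, not well above background, −4.14 at Dyrk2−/− E8.5, and −0.63 and −0.89 at E10.5. It was at least 18.2-fold higher at E10.5 in wild-type and 9.5-fold higher in Dyrk2−/−. Of Hoxd10, Hoxd11 and Hoxd12, Hoxd10 alone was already detected on an E8.5 array, that of Dyrk2−/−. Hoxd13, at the 5′ end of HoxD, was detected on both E8.5 arrays, so detection there did not follow the order of the cluster.

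At the 5′ end of HoxC, Hoxc12 was silent on each array and Hoxc10 was already detected at E8.5. Hoxc10 read −4.36 in wild-type and −3.32 in Dyrk2−/− at E8.5, then −0.52 and −0.85 at E10.5. Hoxc11 read −4.82 and −5.09 at E8.5, not well above background, then −1.22 and −1.61 at E10.5, at least 12.1-fold and at least 7.53-fold higher. Hoxc13, a gene of hair and nail epithelium, read −7.01 and −6.73 at E8.5, not well above background, then −2.75 and −4.43 at E10.5, at least 4.21-fold and at least 1.07-fold higher. Another Hoxc13 probe, not detected on any array, differed with stage by 0.05 in wild-type and −0.26 in Dyrk2−/−, on the log2 scale. The remaining group 13 genes were dim. Hoxa13, a partner of Hoxd13 in the autopod and hindgut, read −5.96 and −4.79 at E8.5, not well above background, then −3.78 and −4.48 at E10.5, at least 2.06-fold and at least 1.04-fold higher. Hoxb13, a tail bud gene, was detected on the wild-type E10.5 array alone: it read −6.28 and −5.48 at E8.5, then −1.38 and −5.00 at E10.5, so its wild-type level was at least 10.8-fold higher at E10.5.

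**Figure D1:**
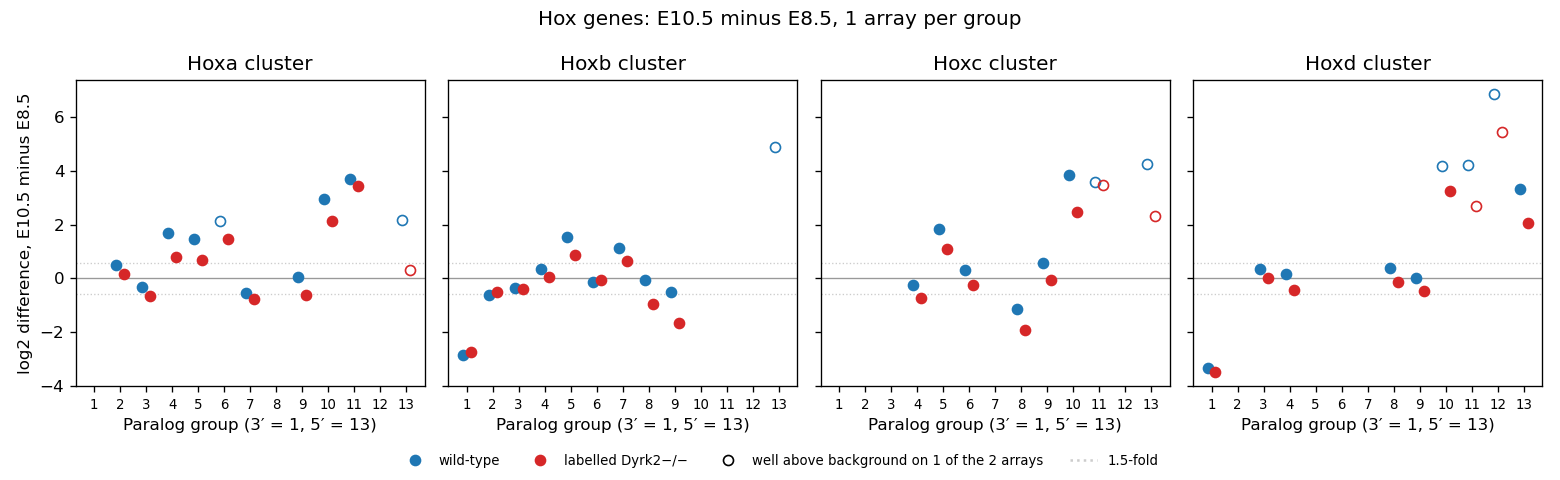
Difference in log2 level, E10.5 minus E8.5, for Hox genes against their paralog group, in 4 panels by cluster, with wild-type in blue and Dyrk2−/− (as labelled) in red, 1 array per group. Open circles are genes detected on 1 of the 2 arrays, and genes detected on neither and 1 other gene are not drawn. Hoxb1 and Hoxd1 lie between −3.49 and −2.73, genes of groups 2 to 9 lie on both sides of 0 and some of those in red turn sign with another scaling, and groups 10 to 13 lie above 0, of which Hoxa13 in red turned negative with normexp background correction.

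Counted at 1.5-fold, 17 of the 38 Hox genes detected on at least 1 wild-type array were higher at E10.5 and 5 lower, where 18.8% and 17.5% of 21643 genes were. In Dyrk2−/− 15 of 37 were higher and 10 lower, against 17.6% and 13.9% of 21266 genes. The split was 20 higher and 5 lower with spike-in scaling and 16 and 6 with no scaling. Those shares are for the main scaling, and the median of all genes was 0.59 with spike-in scaling and 0.25 with no scaling. A gene detected at E10.5 alone had to be higher there, so the 30 genes detected on all 4 arrays were also counted. Of these, 9 were higher and 5 lower in wild-type, with 14.7% and 15.3% over all genes, and 9 were higher and 10 lower in Dyrk2−/−, with 12.6% and 12.4%. All 9 that were higher in wild-type had paralog number 4 or above, and the 5 that were lower included the anterior genes Hoxb1, Hoxb2 and Hoxd1. Across genes the Spearman correlation of the stage difference with paralog number was 0.719 in wild-type (38 genes) and 0.595 in Dyrk2−/− (37 genes), and 0.528 and 0.408 over the 30 genes. Genes of a cluster are not independent replicates, and all points share the same arrays. By cluster, over the genes detected on all 4 arrays, it was 0.633 in wild-type and 0.633 in Dyrk2−/− for Hoxa (9 genes), 0.433 and 0.1 for Hoxb (9 genes), 0.429 and 0.429 for Hoxc (6 genes), and 0.6 and 0.486 for Hoxd (6 genes).

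The stage difference over both genotypes was tested with limma, with genotype as a block, over all probes detected on at least 2 arrays. Of 37 Hox genes tested, 15 rose and 9 fell at an adjusted p under 0.05, against 17.2% and 20.4% of 20901 genes, and 13 passed in neither direction. Hoxb13 and Hoxc12 were not tested. Among the 15 that rose, Hoxc11, Hoxc13, Hoxd11 and Hoxd12 entered through their E10.5 arrays alone, so they had to be higher there. Hoxa6 and Hoxd10, also among the 15, were not detected in wild-type E8.5. Over the 30 genes detected on all 4 arrays, 9 rose and 9 fell, against 15.1% and 21% of 18686 genes. The 9 that rose were Hoxa4, Hoxa5, Hoxb5, Hoxc5, Hoxb7, Hoxa10, Hoxc10, Hoxa11 and Hoxd13. Those that fell included Hoxb1, Hoxd1, Hoxb2, Hoxa3, Hoxc4, Hoxa7, Hoxc8 and Hoxb9, and with spike-in scaling the last 6 no longer passed, nor did Hoxa5, Hoxb5 and Hoxb7, although their rise was larger there (1.36, 1.48 and 1.15 against 1.07, 1.19 and 0.87), for a split of 12 higher and 3 lower. The 6 lost falls kept their direction there, at −1.26 for Hoxc8 and −0.82 for Hoxb9 against −1.54 and −1.10, and from −0.37 to −0.21 for the other 4. With no scaling the split was 20 and 6, and without the intensity trend 14 and 4. The shares of all genes given above are those of the main fit and do not apply to these other splits. In this limma fit Hoxa11 rose by 3.56 ± 0.15 (SE, adjusted p = 8.1e-07), Hoxa10 by 2.53 ± 0.19 (adjusted p = 1.7e-05) and Hoxc10 by 3.15 ± 0.30 (adjusted p = 6.6e-05), on the log2 scale. By the same limma fit Hoxd1 fell by 3.41 ± 0.15 (adjusted p = 8.9e-07) and Hoxb1 by 2.80 ± 0.14 (adjusted p = 1.7e-06). With normexp background correction the rises of Hoxa11, Hoxa10 and Hoxc10 were 2.85, 2.32 and 1.79. Hoxd12 then rose by 2.24 against 6.16 and Hoxd13 by 1.38 against 2.69. Hoxc13, at 0.49 against 3.28, no longer passed there. The 2 arrays of each stage are of different genotype, and the fit has 1 residual degree of freedom before the variances are shared across probes. The labels do not say whether the embryos came from separate litters.

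At E8.5 the Hox genes were mostly higher on the array labelled Dyrk2−/−, and more so towards the 5′ end of the clusters, with a sign that depended on the scaling. Of the 32 genes detected on at least 1 E8.5 array, 8 were 1.5-fold or more higher and 0 lower. Over 20709 genes, 5.14% were higher and 6.5% lower. With spike-in scaling 0 of these Hox genes were higher and 6 lower, but the median of all genes was then −0.57. The shares above are for the main scaling and do not apply to those counts. The median difference, Dyrk2−/− minus wild-type, was 0.36 over the Hox genes and −0.02 over all genes, with 26 positive and 6 negative Hox genes, but the Hox median was −0.18, with 11 positive, with spike-in scaling. Scaling by the spike-in probes moved the median of all genes by −0.55 at E8.5 and by 0.16 at E10.5, and omitting the scaling moved it by −0.26 and −0.13. For the stage differences the shifts were −0.07 in wild-type and 0.64 in Dyrk2−/− with spike-ins, and 0.18 and 0.31 with no scaling. Such shifts leave differences between genes of 1 comparison as they are. The Hox median was 0.39 above the median of all genes tested at E8.5 under all 3 of these scalings. The anterior, central and posterior medians were −0.03, 0.36 and 0.58, and −0.58, −0.18 and 0.03 with spike-in scaling, so posterior minus anterior was 0.61, again the same under the 3 scalings.

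The genes past 1.5-fold at E8.5 were central or posterior, and with bounds they numbered 7, without Hoxa6. Hoxa4 read −3.13 in wild-type and −2.33 in Dyrk2−/− at E8.5, then −1.47 and −1.55 at E10.5. It was 1.75-fold higher on the E8.5 array labelled Dyrk2−/−, and the genotypes lay together at E10.5. Hoxa6 read −5.00 at wild-type E8.5, not well above background, and −4.36 in Dyrk2−/−, at least 1.37-fold higher, with −2.89 and −2.90 at E10.5. Hoxd4, a gene of the cervical axis and hindbrain, read 2.78 and 3.37 at E8.5, 1.5-fold higher, and 2.93 and 2.94 at E10.5. Hoxd8 read 0.73 and 1.37 at E8.5, 1.56-fold higher, and 1.12 and 1.24 at E10.5. In these 4 genes the Dyrk2−/− E8.5 level lay above the wild-type one, and the E10.5 levels of the genotypes differed by less than 1.1-fold.

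Hoxc8, given above, was 1.51-fold higher at E8.5. Hoxb9, which with its group 9 paralogs patterns the rib cage, read 3.35 in wild-type and 4.05 in Dyrk2−/− at E8.5, 1.63-fold higher, and 2.83 and 2.37 at E10.5. Hoxc10, with the values given above, was 2.05-fold higher, the only Hox gene past 2-fold by its brightest probe. Hoxd10, a lumbar and hindlimb gene, was at least 1.61-fold higher. With spike-in scaling, whose shift is smaller than the threshold, none of the 8 was past 1.5-fold, and Hoxd4 and Hoxc8 were then at 0.042 and 0.046, under the spread between spots. Just under the threshold were Hoxd13 and Hoxd9, each at 0.58, Hoxc9 at 0.55 and Hoxa9 at 0.54, of which Hoxa9 turned negative with spike-in scaling. The 2 dimmer Hoxa9 probes, at 0.65 and 1.84, were past it. In the anterior genes the values were at most 0.19, and with spike-in scaling all 8 were negative. Of the 30 genes detected on all 4 arrays, 6 were higher and 0 lower at E8.5, with 3.69% and 3.24% over all genes.

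At E10.5 the Hox genes were mostly a little lower on the array labelled Dyrk2−/−, and those past 1.5-fold sat at the 5′ ends. Of the 38 genes detected on at least 1 E10.5 array, 6 were 1.5-fold or more lower and 0 higher. Over 21209 genes, 4.22% were lower and 3.51% higher with the main scaling. With spike-in scaling 3 of these Hox genes were lower, and the median of all genes was then 0.16. The Hox median was −0.21, with 33 negative and 5 positive genes, against 0.00 over all genes, and with spike-in scaling it was −0.050 with 24 negative. The anterior, central and posterior medians were −0.14, −0.22 and −0.40, the anterior one turning to 0.02 with spike-in scaling, and posterior minus anterior was −0.25. Over the genes detected on all 4 arrays the posterior median was −0.24 and posterior minus anterior −0.10. The 6 genes were the 4 genes of paralog group 13 and Hoxd11 and Hoxd12. From the values above, Hoxd11 was 1.54-fold, Hoxd12 2.18-fold, Hoxd13 1.61-fold, Hoxa13 1.62-fold and Hoxc13 3.22-fold lower than on the wild-type array. Hoxb13 was not well above background on the Dyrk2−/− array and was at least 10.4-fold lower with the main processing. With normexp background correction its log2 difference was −1.59, and 2 of the 6 genes were past 1.5-fold. Of the 6 genes, Hoxd13 was the only one detected on all 4 arrays. Over the 30 genes so detected 1 was lower and 0 higher, with 1.62% and 1.47% over all genes. The remaining posterior genes at E10.5 ranged from −0.46 for Hoxb9 to 0.11 for Hoxd9, which turned negative with no scaling.

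**Figure D2:**
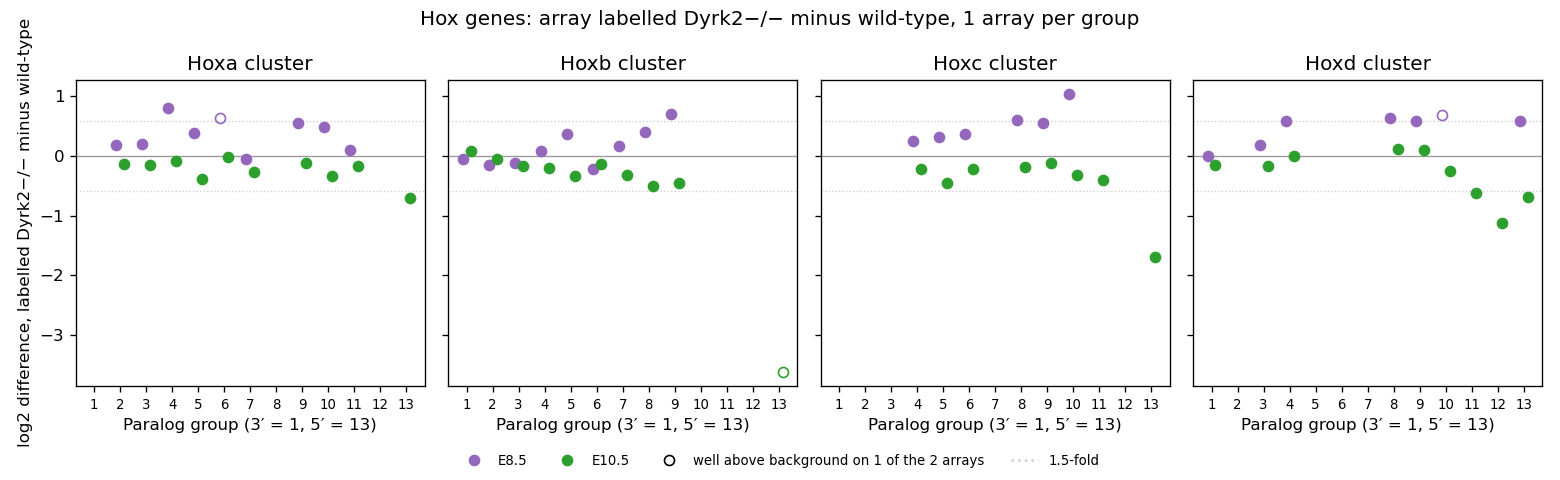
Difference in log2 level, the array labelled Dyrk2−/− minus wild-type, for Hox genes against their paralog group, in 4 panels by cluster, with E8.5 in purple and E10.5 in green, 1 array per group. Open circles are genes detected on 1 of the 2 arrays, and genes detected on neither and 1 other gene are not drawn. Most purple points lie above 0, with a median of 0.36 that became −0.18 with spike-in scaling, and most green points lie below 0, with the lowest values in paralog groups 11 to 13.

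Across genes the Spearman correlation of the genotype difference with paralog number was 0.599 at E8.5 (32 genes) and −0.627 at E10.5 (38 genes). Over the 30 genes detected on all 4 arrays it was 0.602 and −0.397. The E10.5 order therefore rested in part on the dim 5′ genes, and over the genes detected on all 4 arrays it was −0.85 in Hoxb (9 genes) and −0.55 in Hoxa (9 genes) but 0.2 in Hoxc and 0.0286 in Hoxd (6 genes each). At E8.5 it was 0.267 in Hoxa, 0.667 in Hoxb, 0.943 in Hoxc and 0.543 in Hoxd over the same genes. Of these 30 genes, 21 were higher at E8.5 and lower at E10.5 on the arrays labelled Dyrk2−/−, 3 were higher at both, 4 lower at both and 2 lower and then higher. Over all 18686 genes detected on all 4 arrays, 24.2% were higher at E8.5 and lower at E10.5. The count moves with the scaling, which shifts each gene of a comparison alike: with spike-in scaling 4 of the 30 genes, Hoxc8, Hoxb9, Hoxc10 and Hoxd13, were higher at E8.5 and lower at E10.5, against 1.31% of all genes, and with no scaling 16, against 12.2%. The genotype and stage differences are made from the same 4 arrays, so a higher E8.5 and a lower E10.5 level on the arrays labelled Dyrk2−/− is also a smaller rise or larger fall with stage. For the posterior genes the median wild-type stage difference was 3.60 over 15 genes, which counts E8.5 readings not above background as measured, and over the 8 genes detected on all 4 arrays it was 1.76 in wild-type and 0.99 in Dyrk2−/−.

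In the limma fit of genotype over both stages, 0 of the 37 Hox genes tested passed, against 0.0287% of 20901 genes (6 genes). At an unadjusted p under 0.05 there was 1 Hox gene, against 5.67% of all genes, and 0 with spike-in scaling and 4 with no scaling. It was Hoxd8, with a difference of 0.38 and an unadjusted p of 0.0362 in limma (adjusted p = 0.987), higher on the array labelled Dyrk2−/− at both stages with the main scaling but lower at E10.5 with no scaling. What this fit counts as noise is how far the genotype effect changes from E8.5 to E10.5, so genes that go opposite ways have a large error in it.

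Of the 39 genes, 10 had more than 1 probe. The probes of Hoxa10, Hoxa3, Hoxb9, Hoxc6 and Hoxd8 had genotype differences within 0.26 of the brightest probe at each stage. The other probes of Hoxb8, Hoxb2 and Hoxb3 lay up to 0.30, 0.41 and 0.45 from it. The dimmer Hoxb8 probe was 0.71 higher at E8.5 and −0.63 at E10.5, past 1.5-fold at both, where the brightest read 0.41 and −0.51. A dimmer Hoxa9 probe differed by 1.84 at E8.5, against 0.54 and 0.65 for the others, so the size for Hoxa9 is uncertain. A dim Hoxc13 probe, not detected on any array, read −0.05 at E10.5, where the brightest read −1.69. A stretch of 20 identical bases with a probe of another gene was found for 1 of the 39 brightest probes, that of Hoxb3, which shared it with a probe named Nkx1-1.

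Among the factors known to act upstream of Hox genes, the Cdx genes fell with stage. Counts for this and the following lists are with the main scaling, and beside their genotype counts stand 5.14% higher and 6.5% lower over all genes at E8.5, then 3.51% and 4.22% at E10.5. Of 14 listed, 13 were detected on all 4 arrays, and in limma 8 of these fell from E8.5 to E10.5 and 2 rose, where 21% and 15.1% of the 18686 genes so detected did. Cdx2, a caudal factor that activates central and posterior Hox genes, read 4.18 in wild-type and 3.69 in Dyrk2−/− at E8.5, then −1.65 and −2.36 at E10.5. Cdx1, its paralog, read 4.67 and 3.54 at E8.5, then −1.53 and −0.96 at E10.5. Cdx4 read 1.43 and 1.38 at E8.5 and was not well above background at E10.5. All 3 Cdx genes were thus high on both E8.5 arrays and low on both E10.5 arrays. Between genotypes Cdx1 was 2.19-fold lower on the E8.5 array labelled Dyrk2−/− and Cdx2 1.63-fold lower at E10.5. Egr2, an activator of group 2 genes in the hindbrain, was 46.9-fold lower at E10.5 than at E8.5 in wild-type and 34.0-fold lower in Dyrk2−/−. Of the retinoic acid genes, Cyp26b1, which breaks it down, was the only listed factor 1.5-fold or more higher on the array labelled Dyrk2−/−, by 1.79-fold at E8.5, and Aldh1a2, which makes it, differed by 1.2-fold at E8.5 and 1.02-fold at E10.5.

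Of the 9 Pbx, Meis and Pknox genes, which encode DNA-binding cofactors of Hox proteins, all were detected on all 4 arrays and none was 1.5-fold different between genotypes at either stage. In limma 4 of the 9 rose with stage, Pbx3, Meis1, Meis3 and Pknox1, and Pknox2 fell, against 15.1% and 21% of all genes. Of 30 chromatin regulators of the clusters, 3 rose with stage in limma, Kmt2a and Cbx8 among them, 7 fell and 20 did not pass, shares near those of all genes (15.1% and 21%). Kmt2a is a Trithorax methyltransferase that maintains Hox expression, and Cbx8 a Polycomb subunit that read −1.45 and −1.16 at E8.5, then 0.53 and 0.19 at E10.5. Ring1, a Polycomb ubiquitin ligase, was the only one of the 30 past 1.5-fold between genotypes, no more than the share of all genes. It read −1.63 in wild-type and −0.28 in Dyrk2−/− at E8.5, then −0.44 and −0.73 at E10.5.

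Genes beside the clusters and RNAs within them did not all follow the Hox genes. Of 15 neighbouring genes on the array 13 were detected on all 4 arrays, and in limma 4 fell with stage and none rose, where 21% and 15.1% of all genes did. Evx1, the homeobox gene next to Hoxa13, read 3.42 in wild-type and 2.79 in Dyrk2−/− at E8.5, then −0.45 and −1.27 at E10.5, so it fell where Hoxa10 and Hoxa11 rose, and it was 1.55-fold and 1.77-fold lower on the arrays labelled Dyrk2−/−. Evx2, next to Hoxd13, differed by 0.32 and 0.02 with stage. Of 16 noncoding RNAs of the clusters looked for by their own names 7 were on the array, and Hottip was not detected. Of the 4 detected on all 4 arrays Hoxa11os rose with stage in limma, and Hoxb5os, Hoxaas2 and Hoxaas3 fell. Hoxa11os, transcribed opposite Hoxa11, read −2.17 and −2.49 at E8.5, then 2.17 and 1.66 at E10.5, high on the same arrays as Hoxa11. Hoxaas3 read 4.50 and 4.20 at E8.5, then −0.58 and −0.97 at E10.5. Between genotypes Halr1, an RNA of the HoxA region, was the only one of the 7 past 1.5-fold, 1.99-fold lower on the E8.5 array labelled Dyrk2−/−.

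Markers of tissues that express Hox genes were read on the same arrays. All 10 tail bud and presomitic mesoderm genes were lower at E10.5 than at E8.5 in wild-type, 9 of them by 1.5-fold or more, where 17.5% of all genes were. At E8.5, 8 of the 10 were lower on the array labelled Dyrk2−/−, 1 of them, Nkx1-2, by 1.55-fold. At E10.5, 2 of 8 detected tail bud genes were 1.5-fold or more lower on the array labelled Dyrk2−/−: T, the Brachyury factor of axial mesoderm, by 2.81-fold and Tbx6, of presomitic mesoderm, by 3.16-fold. The summed level of the 10 genes, in multiples of the 75th percentile and added over probes of unlike brightness, was 46.9 in wild-type and 41.0 in Dyrk2−/− at E8.5, then 10.9 and 9.4 at E10.5, and the brightest gene was Sp8 except in Dyrk2−/− E8.5, where it was Tbx6. Msgn1 and Nkx1-2 were not well above background at E10.5. Of the 8 limb bud genes, 0 were 1.5-fold different between genotypes at E10.5 and Pitx1 was higher at E8.5, with summed levels of 15.9, 20.5, 22.3 and 21.3 in wild-type E8.5, Dyrk2−/− E8.5, wild-type E10.5 and Dyrk2−/− E10.5 and Pitx1 brightest on all. Of 5 hindgut genes, Foxa2 was lower at E8.5 and Cdx2 at E10.5, with summed levels of 31.3, 23.4, 8.97 and 7.15 in the same order and Cdx2 brightest at E8.5 and Wnt5a at E10.5. The part of these tissues in the Hox differences was not tested.

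Of 9 neural tube genes, 2 were higher on the E8.5 array labelled Dyrk2−/−, Olig2 and Neurog2, and 0 at E10.5, with summed levels of 21.1, 21.5, 64.3 and 51.0 and Sox2 brightest at E8.5 and Nes at E10.5. Of 6 detected somite genes Pax1 was higher at E8.5 and lower at E10.5, with summed levels of 15.2, 18.9, 16.5 and 15.3, Meox1 brightest, and Myf5 detected on no array. None of 6 forebrain genes, which mark tissue free of Hox expression, was 1.5-fold different between genotypes, with summed levels of 20.4, 19.0, 31.7 and 28.5, and Otx2 brightest at E8.5 and Lhx2 at E10.5. Of 6 decidua and trophoblast genes on the array, 3 were detected on an E8.5 array and 2 of these were higher with the Dyrk2−/− label, at summed levels of 0.265, 0.656, 0.290 and 0.256, with Prl8a2 brightest at E8.5 and Prl3b1 at E10.5. Tpbpa and Cts7 were not detected on any array. Their part in the Hox differences was not tested either.

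The red blood cell genes showed that the E8.5 arrays differed in more than the Hox genes. All 10 erythroid genes were 1.5-fold or more higher on the E8.5 array labelled Dyrk2−/− and 6 were at E10.5, with summed levels of 17.3, 383, 1377 and 1602 in the order used above. Hbb-bh1 had the brightest probe at E8.5 and Hbb-y at E10.5. Hbb-y read 0.15 in wild-type and 6.15 in Dyrk2−/− at E8.5, then 8.44 and 8.47 at E10.5, so the Dyrk2−/− E8.5 array lay between wild-type E8.5 and both E10.5 arrays. Of the 9 yolk sac endoderm genes 9 were lower at E8.5, 6 by 1.5-fold or more, with summed levels of 53.6, 35.0, 25.0 and 20.4 and Rbp4 brightest at E8.5 and Afp at E10.5. At E10.5 the arrays differed in sex: Xist was detected in Dyrk2−/− E10.5 alone, and Ddx3y, Eif2s3y, Kdm5d and Uty on the other 3 arrays alone. Summed sex gene levels were 4.67, 4.24, 3.52 and 0.816, with Eif2s3y brightest on the first 3 and Xist on the last. At E10.5 sex and genotype cannot be told apart, and neither can sex and stage in Dyrk2−/−. The Dyrk2−/− E10.5 array also enters both limma fits. The part of blood and yolk sac content in the E8.5 Hox values was not tested.

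Promoter windows, the 250 bases before the annotated start, were read from RefSeq (GRCm38.p6) for 22 of the 39 genes, as 24 windows. They were searched on both strands for TTTATG and TTTATT, the core letters of Cdx-type sites, AGGTCA and AGTTCA, the letters of retinoic acid receptor sites, and TAATTA, a homeodomain-type core that can overlap the Cdx-type letters. TTTATG was in 5 of the 24 Hox windows (20.8%) and in 10.8% of all 32851 windows, TTTATT in 5 (20.8%) and 18.1%, AGGTCA in 6 (25%) and 14%, AGTTCA in 2 (8.33%) and 11.8%, and TAATTA in 2 (8.33%) and 4.84%. The windows with TTTATG belonged to Hoxd3, Hoxd4, Hoxa7, Hoxb8 and Hoxd11. A match of letters is a description of the window and not a binding site. The windows of the neighbours that were higher at E10.5 in HoxD, and of 2 group 1 genes that fell, are printed 5′ to 3′ on the gene's strand, with matches in capitals. Hoxd11 has 2 annotated starts, and Hoxd12, Hoxb1 and Hoxd1 hold none of the 5 motifs in these windows.
Hoxd10, chr2:74691641-74691890 (+ strand): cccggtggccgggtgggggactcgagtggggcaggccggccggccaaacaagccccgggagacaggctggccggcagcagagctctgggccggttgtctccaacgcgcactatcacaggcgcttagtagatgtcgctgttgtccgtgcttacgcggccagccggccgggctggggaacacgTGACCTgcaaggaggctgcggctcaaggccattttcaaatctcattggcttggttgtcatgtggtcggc
Hoxd11, chr2:74679308-74679557 (+ strand): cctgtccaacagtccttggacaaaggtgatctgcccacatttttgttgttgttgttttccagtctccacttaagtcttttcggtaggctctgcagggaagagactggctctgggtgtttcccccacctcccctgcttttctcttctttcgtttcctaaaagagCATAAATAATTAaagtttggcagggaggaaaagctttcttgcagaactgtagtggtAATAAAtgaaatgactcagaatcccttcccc
Hoxd11, chr2:74682073-74682322 (+ strand): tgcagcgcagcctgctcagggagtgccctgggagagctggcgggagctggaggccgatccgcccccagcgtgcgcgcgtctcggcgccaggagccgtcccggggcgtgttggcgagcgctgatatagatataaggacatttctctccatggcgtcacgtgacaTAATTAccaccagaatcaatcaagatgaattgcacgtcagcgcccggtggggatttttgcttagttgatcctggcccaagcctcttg
Hoxd12, chr2:74674763-74675012 (+ strand): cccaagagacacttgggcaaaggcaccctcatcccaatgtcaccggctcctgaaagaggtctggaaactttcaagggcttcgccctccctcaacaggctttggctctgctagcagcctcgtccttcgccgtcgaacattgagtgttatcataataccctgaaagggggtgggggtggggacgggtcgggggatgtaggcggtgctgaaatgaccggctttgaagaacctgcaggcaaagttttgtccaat
Hoxd13, chr2:74667975-74668224 (+ strand): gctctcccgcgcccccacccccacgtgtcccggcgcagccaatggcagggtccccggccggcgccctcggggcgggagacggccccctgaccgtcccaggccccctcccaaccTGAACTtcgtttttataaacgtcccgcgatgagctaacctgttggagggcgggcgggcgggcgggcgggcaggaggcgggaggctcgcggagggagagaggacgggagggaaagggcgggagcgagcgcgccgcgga
Hoxb1, chr11:96365508-96365757 (+ strand): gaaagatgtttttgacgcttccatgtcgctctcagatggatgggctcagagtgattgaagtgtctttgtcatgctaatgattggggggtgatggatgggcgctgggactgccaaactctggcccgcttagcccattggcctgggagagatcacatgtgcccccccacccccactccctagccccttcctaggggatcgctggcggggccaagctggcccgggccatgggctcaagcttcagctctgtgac
Hoxd1, chr2:74762730-74762979 (+ strand): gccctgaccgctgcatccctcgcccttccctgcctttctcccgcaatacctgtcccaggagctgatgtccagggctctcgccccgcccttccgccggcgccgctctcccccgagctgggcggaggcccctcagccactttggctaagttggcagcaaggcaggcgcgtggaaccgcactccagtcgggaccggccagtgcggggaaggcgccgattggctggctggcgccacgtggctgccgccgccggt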

How the data were processed

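Total RNA of whole embryos was labelled with Cy3 and hybridised to SurePrint G3 mouse 60-mer arrays. The authors deposited 1 scanner file of background-subtracted spot intensity per array, made with Feature Extraction (version 10.7.1.1 in the file headers, 9.5.1.1 in the labels), and a table of processed values whose columns share 1 distribution. Control spots and outlier spots were left out, spots of a probe were averaged on the log2 scale, and values were set relative to the array's own 75th percentile. No noncontrol spot was saturated. Between 30227 and 31943 probes per array were well above background. A gene was its brightest probe over the 4 arrays. Differences within a stage or genotype had 1 array a side and no test. Stage and genotype were fitted together with limma 3.58.1 in R 4.3.3 (trended variance, 32289 probes detected on at least 2 arrays, Benjamini-Hochberg over all of them). In simulated data the stage fit recovered 180 of 200 probes changed 1.5-fold, with 11 false calls. The simulation gave every probe the same spread and the same stage effect in both genotypes. It therefore does not give the error rates for these data. Genes named with values on all arrays were those 1.5-fold apart between genotypes, those detected late, and others named for their role after their values were seen. The members and lists were chosen with earlier results of these data known. Alternatives were quantile normalization, spike-in scaling (7 probes), no scaling, normexp background correction (offset 50), the deposited table, the mean over probes, other filters, bounds, a 2-fold threshold and limma without trend. Homeodomain sequences were not analysed here. Python 3.11.15, pandas 2.3.3, scipy 1.17.1 and matplotlib 3.10.9 were used.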

Additional observations from a re-analysis of the deposited data

Results flagged for a closer look

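Among the Hox genes detected on all 4 arrays, 3 by their brightest probes went opposite ways at the 2 stages on the arrays labelled Dyrk2−/−, with a gap of 1 or more on the log2 scale. For Hoxb9 the difference, Dyrk2−/− minus wild-type, was 0.70 at E8.5 against −0.46 at E10.5, a change of −1.16. For Hoxc10 it was 1.04 and −0.32, a change of −1.36. For Hoxd13 it was 0.58 and −0.69, a change of −1.27. With spike-in scaling the changes were −0.45, −0.65 and −0.56, so none reached 1, and with normexp background correction those of Hoxc10 and Hoxd13 were −0.71 and −0.90. Dimmer probes of Hoxa9 and Hoxb8 also met the rule, with changes of −1.92 and −1.34. The share of all genes that meet the same rule was not counted, so the 3 have no background to be read against. With 1 array per group, whether the genotype differences of these Hox genes differ between the stages was not tested.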

How the results depend on the processing

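Alternatives were run for the counts of called Hox genes, the Hox and posterior medians between genotypes, the posterior and anterior wild-type stage medians and posterior minus anterior. Of these, 138 left a count within 1.5 times or a median within its spread, 38 moved the value and 1 turned its sign. A median could thus be labelled as moved while it stayed within 1.5 times. The tally holds settings that could not differ, as spike-in scaling and no scaling leave posterior minus anterior unchanged. The deposited table, whose columns share 1 distribution, gave values near those of quantile normalization. The sign that turned was that of the median Hox difference between genotypes at E8.5, −0.18 with spike-in scaling. With no scaling that median stayed positive but moved to 0.11. Medians of other groups, not among these, that turn with spike-in scaling are given in the text above. With spike-in scaling the genes higher in Dyrk2−/− at E8.5 numbered 0 and those lower 6, those lower at E10.5 numbered 3, those lower at E10.5 than at E8.5 in Dyrk2−/− 5, and those lower with stage in limma 3. The E10.5 genotype medians were then −0.050 over all Hox genes and −0.23 over groups 9 to 13. With no scaling 1 gene was higher and 1 lower at E8.5, 6 were lower with stage in Dyrk2−/−, the E10.5 medians were −0.34 and −0.53, and the wild-type stage medians were 3.78 for groups 9 to 13 and −0.30 for groups 1 to 3. With normexp background correction 2 genes were higher at E8.5 and 2 lower at E10.5, the median of groups 9 to 13 was −0.25 between genotypes at E10.5 and 1.62 with stage in wild-type, and posterior minus anterior at E8.5 was 0.46. The wild-type stage median of groups 9 to 13 was 3.47 with quantile normalization, 3.46 with the deposited table or no filter, 2.94 with bounds and 1.76 over genes detected on both arrays. That of groups 1 to 3 was −0.60 with the mean over probes. At a 2-fold threshold 5 genes were lower with stage in Dyrk2−/−, 1 was higher at E8.5 and 3 lower at E10.5. Without the intensity trend 4 genes fell in limma. The cause of these moves was not tested, and shares of all genes past the thresholds are not given for the other scalings.

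Genes detected on both wild-type arrays numbered 9 among those higher with stage. In limma the planned restriction to probes detected on all 4 arrays gave 9 genes higher with stage. For the fold counts and medians the same restriction was chosen after seeing the data, as was the posterior minus anterior difference. It gave 9 higher with stage in wild-type, 9 in Dyrk2−/−, 1 lower at E10.5 between genotypes, a median of −0.24 for groups 9 to 13 at E10.5, 1.76 for their wild-type stage difference, and −0.10 for posterior minus anterior at E10.5. These counts are over fewer genes. Left out were Hoxa6 and the posterior genes not detected on all 4 arrays, among them every gene lower at E10.5 between genotypes except Hoxd13. For single genes past 1.5-fold between genotypes, 42 values stayed past it and 28 fell below it. The shifts of spike-in scaling and of no scaling are smaller than the threshold, so these values could not change sign there. Signal over background limits the 5′ genes at E8.5, and 1 array per group limits all genotype differences. No paired analysis was possible because the labels carry no replicate numbers and each group has 1 array, though the limma stage fit has genotype as a block.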
